A study of Mus musculus with 4 samples.

Results

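Laminins, integrins, matrix proteases and a few large matrix proteins build and remodel the material around lung cells, and many of their genes also gave circular RNAs. A circular RNA (circRNA) is closed into a ring by back-splicing of an exon end to an earlier exon start, and it was counted here by junction reads, the reads that cross that back-splice. Member circRNAs were those whose deposited host gene has a symbol starting with Lama, Lamb, Lamc, Itga, Itgb, Adam (which takes in Adamts and Adamtsl) or Col and a digit, or is Hmcn1, Frem1, Fras1, Npnt or Sulf1. Adam10 and 8 collagen genes (Col4a1, Col4a2, Col4a5, Col1a2, Col3a1, Col5a1, Col6a1 and Col6a2) were left out of the rule. It matched 141 genes of the GENCODE M21 annotation, of which 54 hosted 151 of the 13499 distinct circRNAs listed, and Fras1 was not among them. The rule used symbols alone, so Col4a3bp, which encodes a ceramide transfer protein and no collagen, came in with 3 circles and 8 junction reads and is kept apart below.

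Total RNA came from whole lung of C57BL/6 mice at 4 stages, with 1 library each and with no other genotype or treatment named in the labels. The pseudoglandular library was taken at embryonic day 14.5, the canalicular at embryonic day 16.5, the terminal sac at embryonic day 18.5 and the alveolar from newborns at day 7.5. How many animals each library pooled is not stated in the labels, and there is no replicate, so every interval below is a 95% interval that covers counting error between these libraries and not variation between animals. Listed junction reads numbered 25983, 31218, 36156 and 28332 in order of stage, and every listed circRNA had 2 or more. Member circRNAs numbered 37, 39, 49 and 54 and held 123, 138, 176 and 226 of those reads, so most single circles rest on few counts. As a check on the tissue, the hosts that mark surfactant-making alveolar type 2 cells had 0, 24, 446 and 766 junction reads. Most were from Sftpc (0, 0, 376 and 521), and Lamp3, Sftpb and Slc34a2 were also highest at the alveolar stage. Etv5 went the other way after the canalicular stage, with 0, 18, 6 and 0 reads. Of the 6 type 2 markers Abca3 was not listed. Nor were 5 of the 6 type 1 markers and 5 of the 6 general epithelial markers, Nkx2-1 included.

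As background, laminins are trimers of an alpha, a beta and a gamma chain that form the sheet of a basement membrane, and integrins are paired receptors that tie cells to it. ADAM proteases sit in the cell membrane and shed surface proteins, while ADAMTS proteases are secreted and cut or organise proteoglycans and fibrillin microfibrils. In the lung this matrix lies under the branching epithelium and between airspace and capillary, and it is remodelled as airspaces widen and septa form.

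Junctions among those that carried most reads are shown first, because their sequences bear on how they can be read. Adam12 exons 6 to 11 and Adam9 exons 12 to 14, with 14 reads each like the Itga8 circle shown, are left out. Each line gives the last 20 bases of the circle followed by its first 20 bases, 5′ to 3′ on the transcribed strand, from GENCODE M21 transcripts on build mm10. Capitals mark the bases that stand at both ends in the linear transcript, over which the place of the join cannot be told from the sequence. All 6 joined coding exons at annotated boundaries.
Hmcn1 exons 79 to 80 (chr1:150622901-150623301, minus strand): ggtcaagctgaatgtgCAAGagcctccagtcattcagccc
Hmcn1 exons 27 to 38 (chr1:150703169-150737608, minus strand): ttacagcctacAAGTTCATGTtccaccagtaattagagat
Col16a1 exons 23 to 25 (chr4:130060874-130061637, plus strand): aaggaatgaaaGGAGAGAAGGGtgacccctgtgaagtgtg
Adamts9 exons 4 to 11 (chr6:92901375-92912912, minus strand): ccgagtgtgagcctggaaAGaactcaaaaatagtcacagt
Adam12 exons 7 to 11 (chr7:133961084-133975528, minus strand): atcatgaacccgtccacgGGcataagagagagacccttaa
Itga8 exons 3 to 13 (chr2:12230050-12265333, minus strand): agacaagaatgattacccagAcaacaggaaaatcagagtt

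The 3 junctions at the top have a direct repeat of 4, 10 and 11 bases at their ends, and the other 3 have 1 or 2 shared bases. For the 3 with longer repeats the linear transcript around each end is shown as well, with the same repeat in capitals, since both ends lie in repeated parts of the genes. Hemicentin-1 is built largely of immunoglobulin-like repeats and collagen XVI of repeated collagen triplets.
Hmcn1, linear, around the first base of exon 79: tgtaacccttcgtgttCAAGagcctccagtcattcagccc
Hmcn1, linear, around the last base of exon 80: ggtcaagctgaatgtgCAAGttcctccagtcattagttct
Hmcn1, linear, around the first base of exon 27: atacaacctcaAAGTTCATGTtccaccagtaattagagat
Hmcn1, linear, around the last base of exon 38: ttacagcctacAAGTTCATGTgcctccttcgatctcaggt
Col16a1, linear, around the first base of exon 23: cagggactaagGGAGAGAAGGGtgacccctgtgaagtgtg
Col16a1, linear, around the last base of exon 25: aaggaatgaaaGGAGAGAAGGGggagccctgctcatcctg
Position by position, the pair of linear windows had the same base at 25 of 40 positions for Hmcn1 exons 79 to 80, at 26 for exons 27 to 38 and at 27 for Col16a1. Whether such likeness between ends adds to the reads of these junctions was not tested.

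Reads of a junction can also be few in kind. CIRI, the caller whose column names the files carry, records how many distinct alignment patterns the junction reads show. A circle is called marked below when its ends share a direct repeat of 6 or more bases, or when the library with most of its reads held 6 or more reads with at most 0.5 patterns per read. That definition was chosen after the data had been seen. It took in 17 of the 151 member circRNAs (11.3%) and 4.50% of all listed circRNAs. In order of stage, marked circles held 32 of 123, 17 of 138, 26 of 176 and 81 of 226 member reads, so where they carry part of a comparison between stages, its value without them is given as well.

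Member hosts took 0.473% of listed junction reads in the pseudoglandular library (Clopper-Pearson interval 0.394 to 0.565), 0.442% in the canalicular (0.372 to 0.522), 0.487% in the terminal sac (0.418 to 0.564) and 0.798% in the alveolar (0.697 to 0.908). The intervals of the 3 earlier libraries overlapped, and the alveolar interval lay above all of them. Most of that difference lay in 1 gene: without Hmcn1 the alveolar share was 0.533% (0.452 to 0.625), and its interval overlapped those of the other 3. With marked circles out of the member reads alone, the alveolar share was 0.512% (0.432 to 0.602) and the pseudoglandular 0.350% (0.282 to 0.430). Without Hmcn1 too they were 0.487% (0.409 to 0.575) and 0.327% (0.261 to 0.404). Both times the alveolar interval lay above the pseudoglandular one alone. With marked circles out of the whole library and Hmcn1 kept, shares were 0.398%, 0.441%, 0.474% and 0.642% in order of stage. In whole tissue, fewer cells of a type and less RNA per cell cannot be told apart, and this holds for every level given here.

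Reads were concentrated in few hosts. The 8 hosts with 28 or more junction reads over the 4 libraries, Hmcn1 (83), Adamts9 (70), Frem1 (63), Adamts17 (56), Adam12 (37), Col16a1 (31), Adamts6 (29) and Itga8 (28), held 397 of the 663 member reads (59.9%). At the other end 35 hosts had 2 to 9 reads. Of the 54 hosts 23 appeared in 1 library, 16 in 2 and 9 in 3, and 6 appeared at every stage: Adam12, Adamts6, Adamts9, Col1a1, Frem1 and Itga8.

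**Figure D1:**
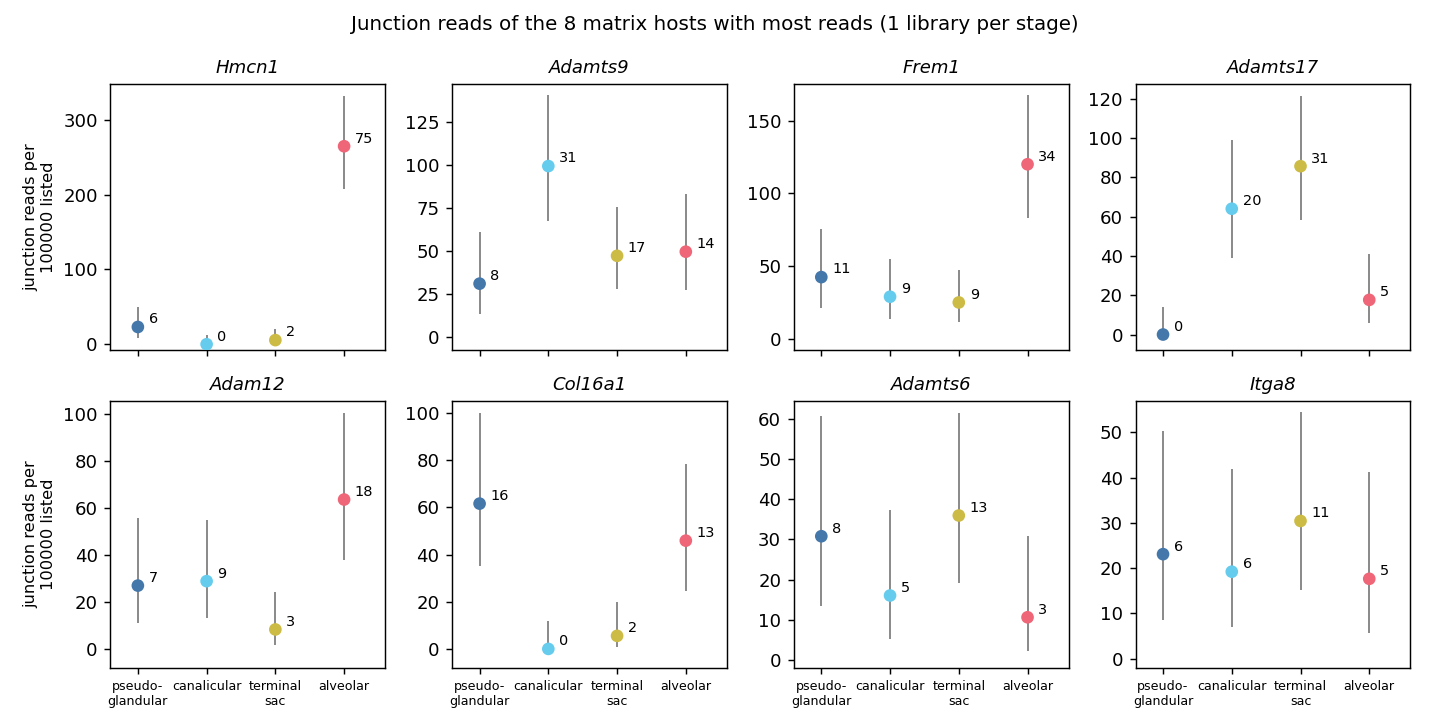
Junction reads per 100000 listed junction reads (vertical axis, each panel with its own scale) in the 4 libraries for the 8 matrix hosts with most reads. Points carry the raw read number and lines are exact Poisson 95% intervals; Hmcn1 and Frem1 are highest in the alveolar library (75 and 34 reads), Adamts9 in the canalicular (31) and Adamts17 in the terminal sac (31).

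By family, hosts of the group Hmcn1, Frem1, Npnt and Sulf1 went from 0.0885%, 0.0545% and 0.0526% of junction reads in the embryonic libraries to 0.409% (0.338 to 0.491) in the alveolar. Of the 116 alveolar reads behind that value 71 were marked. Without marked circles, in members and in the whole library alike, the group stood at 0.100% (0.0637 to 0.151), 0.0401%, 0.0601% and 0.199% (0.145 to 0.266) in order of stage. The alveolar interval then overlapped the pseudoglandular one slightly. Overlap of separate intervals, here, for the other families and for all members above, does not show that shares are alike. No ratio between stages was computed for a family. ADAMTS and ADAMTSL hosts stood at 0.108% (0.0716 to 0.156) in the pseudoglandular library, 0.195% (0.149 to 0.251) in the canalicular, 0.205% (0.161 to 0.257) in the terminal sac and 0.109% (0.0744 to 0.155) in the alveolar. Their pseudoglandular and terminal sac intervals did not overlap, nor did the terminal sac and alveolar ones, while the canalicular interval overlapped both outer libraries slightly. Marked circles held 23 of the 74 terminal sac ADAMTS reads and 0 of the 31 alveolar ones. Without them the family stood at 0.0918% (0.0568 to 0.140), 0.190% (0.142 to 0.248), 0.161% (0.120 to 0.212) and 0.137% (0.0933 to 0.195) in order of stage, so the terminal sac interval overlapped both outer ones and the canalicular interval lay just above the pseudoglandular one. Laminin hosts were lowest in the alveolar library, 7 reads or 0.0247% (0.00993 to 0.0509), against 27 reads or 0.0747% (0.0492 to 0.109) in the terminal sac, intervals that overlap slightly. Without the marked Lama2 circle the pseudoglandular laminin share, 0.0306%, was as low as the alveolar 0.0310%. Collagen hosts stood at 0.0962% (0.0623 to 0.142) in the pseudoglandular library, 0.0513% in the canalicular, 0.0470% (0.0274 to 0.0753) in the terminal sac and 0.113% (0.0773 to 0.159) in the alveolar, with 13 of the 32 alveolar reads from Col16a1. The terminal sac and alveolar intervals did not overlap, but without marked circles, which held 10 of the alveolar and 16 of the 25 pseudoglandular reads, they did. The collagen shares were then 0.0393% (0.0180 to 0.0746), 0.0510%, 0.0443% (0.0242 to 0.0742) and 0.0974% (0.0610 to 0.147). Integrin and ADAM hosts had overlapping intervals at all 4 stages.

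**Figure D2:**
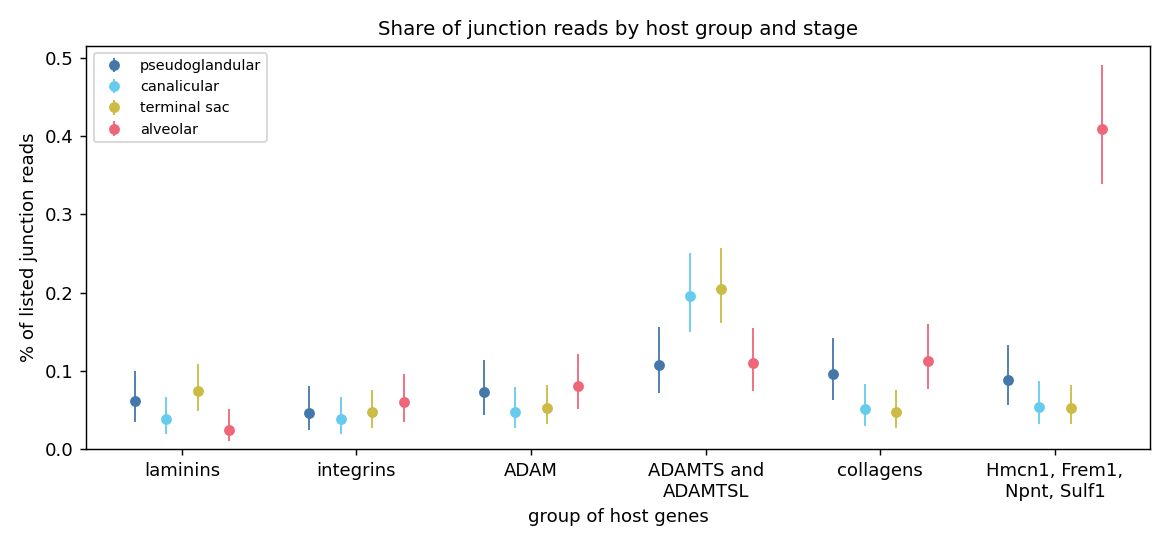
Share of each library's listed junction reads (vertical axis, %) by family of host gene (horizontal axis) and stage (colour), with exact 95% Clopper-Pearson intervals. The group of Hmcn1, Frem1, Npnt and Sulf1 reaches 0.409% in the alveolar library, and the ADAMTS family is higher in the middle stages (0.195% and 0.205%) than at the ends (0.108% and 0.109%). Marked circles are included; without them these values are 0.199% for the group and 0.190%, 0.161%, 0.0918% and 0.137% for ADAMTS.

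Among laminins, 8 of 11 genes were listed, with 20 circles and 62 junction reads, and each circle was listed in 1 library. Lama2 (ENSMUSG00000019899, chromosome 10, 26980036 to 27619758), which encodes the alpha chain of muscle and peripheral-nerve basement membranes, had 11, 2, 0 and 0 reads in order of stage. Of the 11 reads, 9 belonged to a circle within exons 47 to 52 whose ends lie inside exons and which showed 3 alignment patterns, so it counts as marked. Without it Lama2 was at 2, 2, 0 and 0 reads. The cardiac and striated muscle markers had 94 pseudoglandular reads, 62 of them from Ttn, and 16 to 28 at the later stages. Of these 6 markers 3 (Myh6, Tnnt2 and Actn2) were not listed, and the part of such cells in the Lama2 reads was not tested.

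The chains of the widespread laminin of lung epithelium, Lama5, Lamb1 and Lamc1, had 0 alveolar reads. Lamc1 was listed in every embryonic library, and Lama5 and Lamb1 in the canalicular and terminal sac ones, with 0 pseudoglandular reads. Lamb1 had 0, 3, 9 and 0 reads in order of stage. Lama5 had 0, 3, 8 and 0 reads, of which 6 in the terminal sac library came from exons 73 to 75. Lamc1, the gamma chain of most laminins, had 5, 2, 3 and 0 reads from 4 circles. All 3 were highest or second highest in the terminal sac library, and an absent host could still have up to 3 reads by the limit set for a count of 0.

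Lamb3 and Lama3, chains of epithelial basement membranes, were sparse, with 4 terminal sac reads and 2 alveolar reads. Lama1, an early embryonic alpha chain, gave 3 alveolar reads from an intronic span with 0 linear reads at its ends.

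For integrins, 10 of 31 genes were listed, with 18 circles and 58 reads. Itga8 (ENSMUSG00000026768, chromosome 2, 12106632 to 12301922) encodes the integrin chain that binds nephronectin in mesenchyme. It had 6, 6, 11 and 5 reads, levels that did not differ beyond counting error in any pair compared. Its circle of exons 3 to 13, 1056 bases when spliced, had 2, 6, 3 and 3 reads, with 466, 508, 562 and 810 linear reads at the same ends. That circle and the Adamts9 circle of exons 4 to 11 were the 2 member circles listed in all 4 libraries.

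The other integrin hosts had 2 to 6 reads. Itga6, which pairs into laminin receptors, had 4 canalicular and 2 terminal sac reads. Itgb1, the beta chain shared by many integrins, had 4 alveolar reads against 11224 linear reads at its circles' ends, a circular share of 0.0712%. Itga9 had 4 alveolar reads, Itgb5 had 2 in the pseudoglandular and 2 in the terminal sac library, and Itga1, a collagen receptor chain, had the same pair of counts. Itga2, Itga4, Itgb6 and Itgb8 had 2 reads each. Those of Itgb6 and Itgb8, whose products help to activate latent TGF-beta, were alveolar.

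Nephronectin, the matrix ligand of the Itga8 receptor, had 0, 2, 8 and 7 reads from its gene Npnt. Its circle of exons 4 to 9 (chromosome 3, 132904658 to 132917553) had 0, 2, 6 and 5 reads, while the linear reads at its ends were 848, 1146 and 2726 in the 3 libraries that list it. As shares of each library, its junction reads did not differ beyond counting error between the alveolar and the terminal sac library (ratio 1.06, interval 0.257 to 4.18), while its linear reads were 95.6 and 30.2 per 100000 non-junction reads.

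The ADAM family gave 14 circles from 8 of 33 genes, with 76 reads and none of them marked. Adam12 (ENSMUSG00000054555, chromosome 7, 133883199 to 134232146), a membrane protease of mesenchyme and developing muscle, had 7, 9, 3 and 18 reads. The circle of exons 7 to 11 had 4, 6, 0 and 7 reads and that of exons 6 to 11 had 0, 3, 0 and 11. A circle of exons 9 to 11 gave the 3 terminal sac reads, so 3 Adam12 circles end at the same splice site, after exon 11, and together hold 34 of its 37 reads. The terminal sac library thus listed Adam12 through a circle that no other library lists.

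Adam17, the sheddase of TNF and of EGF receptor ligands, had 3, 4, 7 and 0 reads from 4 circles. Adam9 had 5, 2, 7 and 0 reads, all from the circle of exons 12 to 14 (chromosome 8, 24978428 to 24982122), with 457, 653 and 738 linear reads at its ends in the embryonic libraries. Both genes were listed in every embryonic library and not in the alveolar one. The testis genes Adam5 and Adam32 had 2 pseudoglandular reads each, Adam28 had 2 in the terminal sac library, and the protease-dead Adam22 and Adam23 had 2 and 3 in the alveolar.

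ADAMTS and ADAMTSL genes formed the largest family by circles and reads, with 12 of 24 genes listed, 41 circles and 194 reads. Adamts9 (ENSMUSG00000030022, chromosome 6, 92772699 to 92943492), a secreted protease of versican and aggrecan, had 8, 31, 17 and 14 reads from 9 circles. Its leading circle, exons 4 to 11 and 1031 bases spliced, had 6, 17, 8 and 5 reads, with 480, 932, 591 and 678 linear reads at its ends. Both kinds of read were highest in the canalicular library. The 3 circles starting at exon 4 share the end at 92912912, where that exon begins, and hold 47 of the 70 reads, and 11 of the 70 are marked.

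Adamts17 (ENSMUSG00000058145, chromosome 7, 66839735 to 67153171), which acts on fibrillin microfibrils, was not listed in the pseudoglandular library and had 20, 31 and 5 reads in the others. Its 12 circles each held at most 10 reads over all libraries. Exons 3 to 7 gave 5 canalicular and 5 terminal sac reads, exons 5 to 7 gave 5 canalicular reads, and exons 11 to 15 gave 3 and 2. In the part from exon 15 to exon 21 the libraries listed different circles: exons 15 to 19 had 5 canalicular reads, and exons 17 to 19, 17 to 21 and 18 to 19 had 7, 7 and 6 terminal sac reads. Altogether 4 circles end at 67078377, after exon 19, with 20 reads, and 13 of the 56 Adamts17 reads are marked.

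Adamts6, a relative that also acts on fibrillin microfibrils, had 8, 5, 13 and 3 reads from 7 circles. Its linear reads were few, 21 to 147 per circle and library, so 7.02% of reads at its junctions were circular. Adamts18 had 7, 0, 4 and 0 reads, the 7 from a marked circle of exons 4 to 16 with 2 alignment patterns. Adamtsl2, a secreted relative without a protease domain, had 3, 0, 7 and 0 reads, the 7 from exons 9 to 12. Of the 7 further genes of the family, each with 2 to 4 reads, Adamts12 was listed in 2 libraries and Adamts3, Adamts10, Adamts15, Adamts19, Adamts20 and Adamtsl3 in 1.

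**Figure D3:**
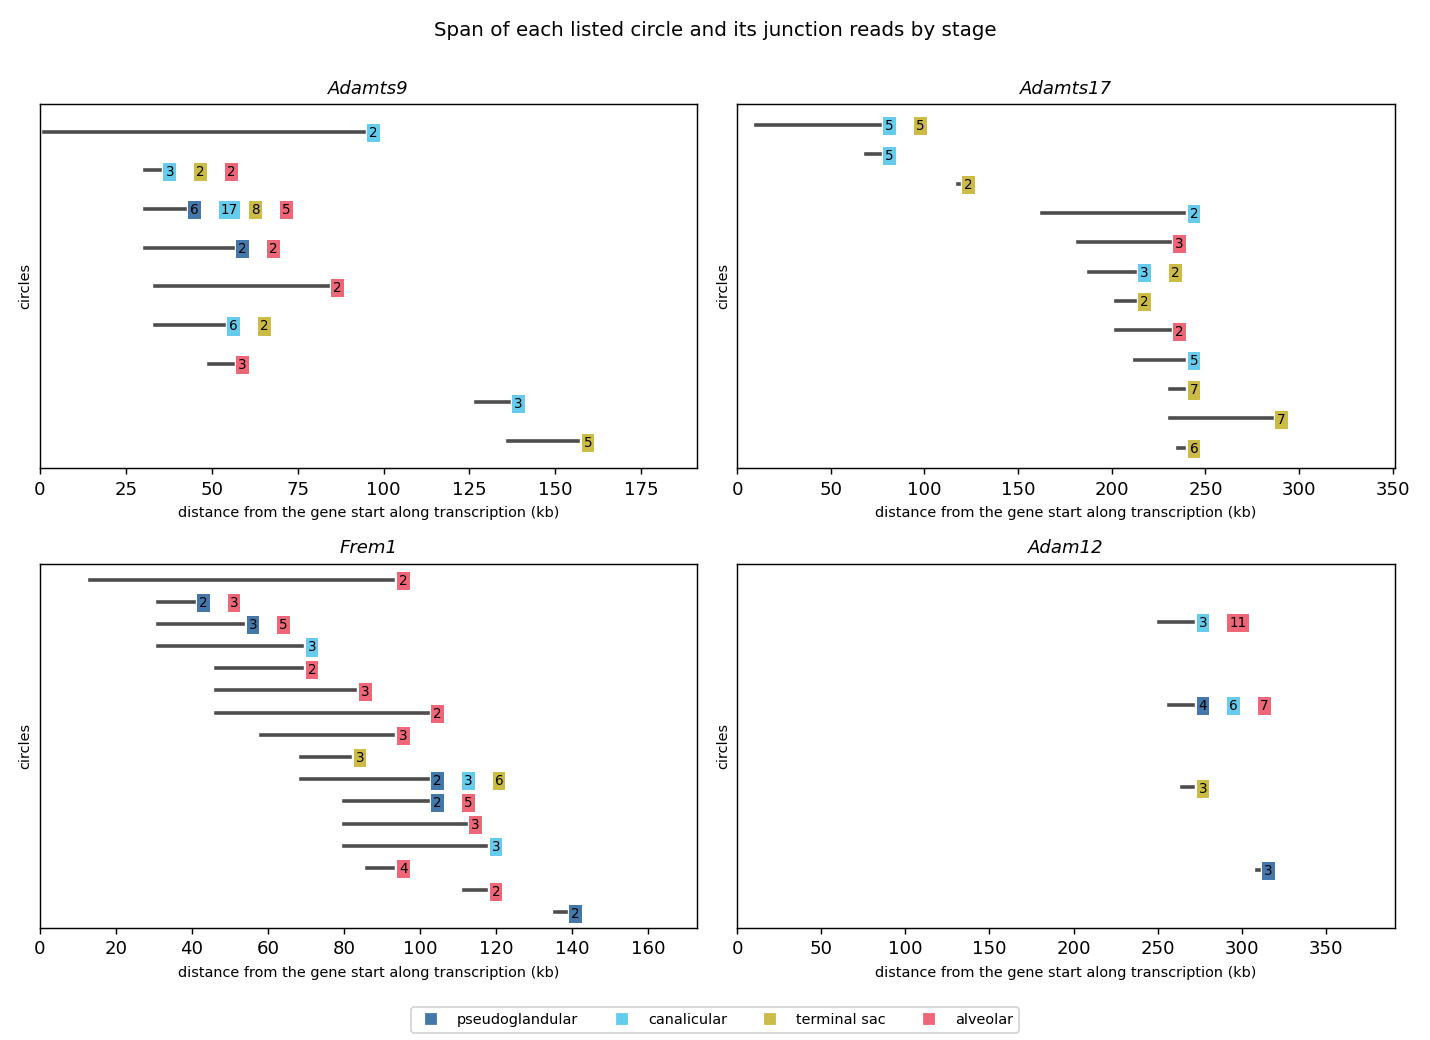
Span of each listed circle (dark line, one circle per row) of Adamts9, Adamts17, Frem1 and Adam12 along the gene (horizontal axis, kb from the gene start in the direction of transcription), with junction reads in coloured boxes by stage. Several circles of each gene share an end; the Adamts9 circle with 6, 17, 8 and 5 reads is the single one of the 4 genes listed at every stage.

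Collagen genes gave 24 circles from 11 of 36 genes, with 90 reads, after 8 others had been left out by the rule. Col16a1 (ENSMUSG00000040690, chromosome 4, 130047840 to 130099283), a collagen that sits on the surface of fibrils, had 16, 0, 2 and 13 reads. The 16 pseudoglandular reads came from the repeat-end circle of exons 23 to 25, the 2 terminal sac reads from exons 17 to 20, and the 13 alveolar reads from exons 11 to 20 (5 reads) and a span not placed in any transcript (8 reads, marked). No Col16a1 circle was listed in more than 1 library, and 24 of its 31 reads are marked.

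Col1a1, the main fibrillar collagen chain of bone and interstitium, had 4, 3, 3 and 4 reads, each from a different circle and none with both ends at exon boundaries. At those ends the linear reads were 1932, 7165, 2809 and 4830, so the circular share lay between 0.0837% and 0.412%. The basement-membrane chain Col4a4 had 6 alveolar reads and 0 elsewhere, and its relative Col4a6 had 2 pseudoglandular and 2 canalicular reads. The transmembrane collagens Col25a1 and Col13a1 had 9 and 5 reads, and the transmembrane Col23a1 had 2. Col24a1, a minor fibrillar collagen, gave 7 reads from exon 3 alone, 4 in the canalicular and 3 in the alveolar library, with a circular share of 14.9%. Col18a1, the source of endostatin, and Col5a2, a fibrillar chain, had 5 reads each, and all 5 of Col18a1 were marked.

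Hmcn1 (ENSMUSG00000066842, chromosome 1, 150562524 to 150993435) encodes hemicentin-1, a very large matrix protein of epithelial junctions. It had 6, 0, 2 and 75 reads. Of the 75 alveolar reads, 38 came from exons 79 to 80, a circle of 273 bases with 10 alignment patterns, and 30 from exons 27 to 38, with 8 patterns. Neither circle was listed in another library, and both are marked, so 7 alveolar reads from 3 circles stay without them. The 6 pseudoglandular reads were 2 each from 3 circles that no other library lists. Linear reads at the ends of Hmcn1 circles averaged 145, 298 and 1549 per circle in the 3 libraries that list the gene. They lie at different ends in each library, so they cannot show whether linear reads of the gene changed between stages.

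Frem1 (ENSMUSG00000059049, chromosome 4, 82897920 to 83052339), a basement-membrane protein of the Fraser complex, had the most circles of any member, 16, with 11, 9, 9 and 34 reads. No circle held more than 11 reads over all libraries. The 34 alveolar reads were spread over 11 circles with 2 to 5 each, and 3 of those reads are marked. Of the 5 pseudoglandular circles, 3 were listed again in the alveolar library: exons 2 to 10 with 3 and 5 reads, exons 16 to 23 with 2 and 5, and exons 2 to 5 with 2 and 3. The circle with most reads, exons 15 to 23, had 2, 3 and 6 reads in the embryonic libraries and was not listed in the alveolar one. Linear reads summed over the circles of each library were 4218, 2681, 1353 and 10551, or 844, 894, 677 and 959 per listed circle. The sums rest on 5, 3, 2 and 11 circles, mostly different ones, so they do not compare the gene between stages. At the 3 circles shared by the pseudoglandular and alveolar libraries, linear reads were 1050 and 1456, 724 and 938, and 963 and 1190, in the order given above.

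Sulf1, an extracellular enzyme that removes sulfate from heparan sulfate, had 6, 6, 0 and 0 reads. The canalicular 6 came from a marked circle of exons 3 to 20 with 2 patterns, and the pseudoglandular 6 from 2 other circles. Col4a3bp had 5 canalicular and 3 terminal sac reads.

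Stages were then compared in 4 pairs by the ratio of each host's shares of listed junction reads. A host needed 10 or more junction reads in the pair. Its call, higher or lower, required a ratio of 2-fold or more with an exact conditional binomial interval that excluded 1. Where a library did not list a host, 3 reads were put in. The fold is then a lower bound only if 3 or fewer reads of the host went unlisted, and the filter behind the lists is not stated in the labels. Median log2 ratios have 0.5 reads added to each count. The pseudoglandular library stands in 2 pairs, as do the other 3, so results of neighbouring pairs are not independent.

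Between the earliest and the latest stage, 8 member hosts could be compared. Hmcn1 was 11.5-fold higher in the alveolar library (5.03 to 32.2) and Frem1 2.83-fold higher (1.40 to 6.20), which makes 2 of 8, beside 13% of the 1088 hosts compared in all. Lama2 was at least 3.998-fold lower (interval of the bound 1.06 to 22.3), 1 of 8 beside 16.5%. Adam12 was at 2.36-fold (0.940 to 6.68), Adamts9 at 1.60 (0.628 to 4.42), and Itga8, Col16a1 and Adamts6 below 1, none of them called. The median log2 ratio of the 8 was 0.14 (0.15 with nothing added and Lama2 at its bound) and that of all hosts compared -0.12. Without marked circles Hmcn1 was at 1.18 (0.340 to 4.26) and not called, Lama2 had too few reads to compare, and Frem1 stayed higher at 2.86-fold (1.40 to 6.30). Adam12 was then called as well, 2.61-fold higher (1.04 to 7.38). That makes 2 of 6 hosts compared without marked circles, beside 27.8% of 1009 hosts called in either direction.

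At the level of single circles the same pair had 6 member circles to compare. Hmcn1 exons 79 to 80 was at least 11.6-fold higher and exons 27 to 38 at least 9.17-fold higher, beside 12.2% of the 933 circles compared. Col16a1 exons 23 to 25 was at least 5.82-fold lower, beside 17.4%. These 3 are the circles with repeats of 4 to 11 bases shown above, and all are marked. The circles of Adamts9 exons 4 to 11 (0.764, interval 0.185 to 3.01) and Adam12 exons 7 to 11 (1.60, 0.408 to 7.48) were not called, nor was Adam12 exons 6 to 11, from 0 to 11 reads (at least 3.36-fold, interval of the bound 0.888 to 18.8).

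**Figure D4:**
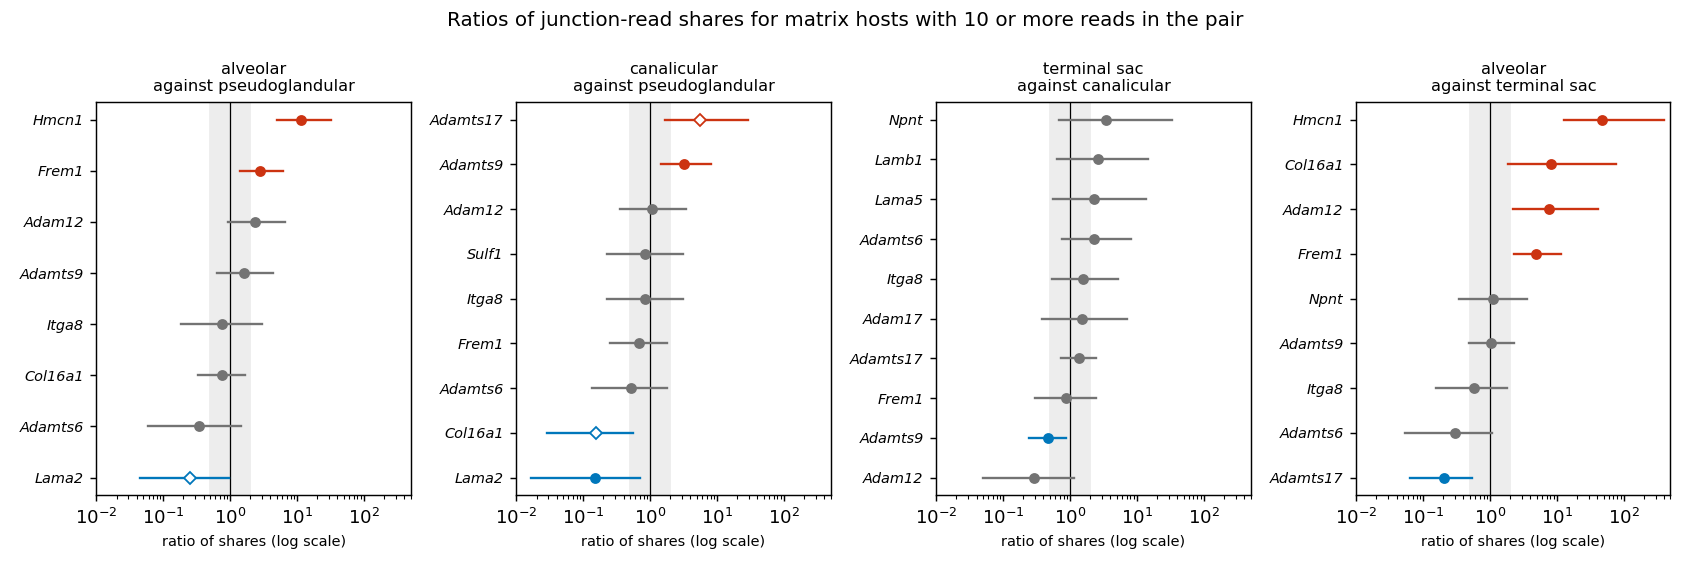
Ratio of junction-read shares (horizontal axis, log scale) for every matrix host with 10 or more reads in the pair, in 4 stage comparisons; lines are exact 95% intervals and the grey band is under 2-fold. Red points were called higher, blue lower and grey neither, and open diamonds mark a host not listed in 1 library and set to 3 reads; Hmcn1 reaches 11.5 and 47.9 in the comparisons of the alveolar library.

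From the pseudoglandular to the canalicular stage 9 hosts were compared and 4 called. Adamts17 was at least 5.55-fold higher (interval of the bound 1.65 to 29.2) and Adamts9 3.23-fold higher (1.45 to 8.12), beside 8.84% of 1131 hosts. Col16a1 was at least 6.41-fold lower and Lama2 6.61-fold lower (1.44 to 61.4), beside 11.4%. Without marked circles Adamts17 alone was called, at least 5.56-fold higher, 1 of 6 hosts compared. Of all 1049 hosts compared 19.4% were then called in either direction. Adamts9 was then at 2.29 (0.984 to 5.96), and with circles at exon boundaries alone at 2.27 (0.979 to 5.86). The median log2 ratio of the 9 was -0.26 and that of all hosts 0.00438.

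From the canalicular to the terminal sac stage 10 hosts were compared. Adamts9 was 2.11-fold lower (1.13 to 4.07), 1 of 10 beside 12.1% of 1236 hosts, and none was higher, beside 12.2%. Npnt, Lamb1, Lama5 and Adamts6 had ratios of 3.45, 2.59, 2.30 and 2.24 whose intervals included 1. The median log2 ratio of the 10 was 0.57 and that of all hosts 0.02. Without marked circles Adamts9 was at 0.591 (0.285 to 1.19) and not called, and at exon boundaries alone at 0.567 (0.275 to 1.13). Thus 0 of 10 hosts were called without marked circles, beside 22.4% of 1164 hosts called in either direction.

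From the terminal sac to the alveolar stage 9 hosts were compared and 5 called. Hmcn1 was 47.9-fold higher (12.8 to 402), from 2 to 75 reads. Col16a1 was 8.30-fold higher (1.88 to 75.7), Adam12 7.66-fold (2.24 to 40.6) and Frem1 4.82-fold (2.26 to 11.4). These 4 stand beside 12.1% of 1199 hosts called higher. Adamts17 was 4.86-fold lower (1.87 to 16.0), 1 of 9 beside 12.4%. The median log2 ratio of the 9 was 0.17 and that of all hosts -0.18. Without marked circles Adam12 and Frem1 were the 2 called of 7 compared, at 8.40 (2.45 to 44.5) and 4.82 (2.24 to 11.5). Of all 1119 hosts compared 21.8% were then called in either direction. Adamts17 was then at 0.389 (0.113 to 1.09), and Hmcn1 and Col16a1 had under 10 reads in the pair.

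Across the 4 pairs, Frem1, Adam12 and Adamts17 were thus the hosts with a call that held without marked circles. Frem1 was higher in the alveolar library than in either library it was set against, Adam12 higher than in the terminal sac, and Adamts17 higher in the canalicular than in the pseudoglandular. At the same time endothelial marker hosts went from 12, 28 and 81 reads to 135, smooth muscle and pericyte hosts from 21, 25 and 54 to 113, and mesenchymal ones, a list that holds Col1a1 itself, had 4 to 7 in each library. Of those lists 0 of 7, 3 of 6 (Acta2, Notch3 and Cspg4) and 2 of 6 (Tcf21 and Fgf10) markers were not listed, and their part in the matrix results was not tested. Among smooth muscle and pericyte hosts the rise was that of Trpc6 alone, with 18, 25, 49 and 108 reads. Myh11 had 3, 0, 2 and 5 and Pdgfrb 0, 0, 3 and 0. Most endothelial reads came from Prex2 (2, 5, 55 and 63) and Pecam1 (3, 19, 22 and 39), while Flt1 had 4, 4, 2 and 2.

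Junction reads were also set against linear reads at the same splice sites, which asks whether circles moved with their gene. The circular share is 2 times junction reads over that number plus linear reads. Where circles of a host share an end, the sum over circles counts the linear reads of that end more than once, so the sums describe junctions and not transcripts. Over the 4 libraries the median member circle had a circular share of 0.993% (quartiles 0.523 to 2.63), below the 2.13% (0.988 to 5.22) of all listed circles. In order of stage the member medians were 1.45%, 0.876%, 1.32% and 0.691%, and those of all circles 2.27%, 2.14%, 2.65% and 2.42%. Median linear reads at member circles were 466, 653, 626 and 818.5, against 309, 349, 275 and 282.5 for all, so matrix circles sat at ends with more linear reads in each library.

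**Figure D5:**
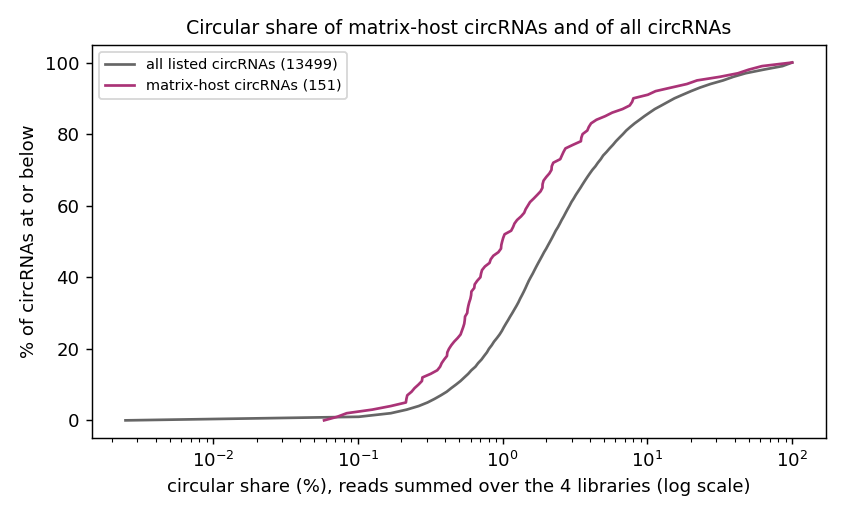
Cumulative percentage of circRNAs (vertical axis) at or below a circular share (horizontal axis, %, log scale; reads summed over the 4 libraries) for the 151 matrix-host circRNAs and all 13499. The matrix curve lies to the left, with a median of 0.993% against 2.13%.

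By family, without a test, the median circular share was 0.514% for laminin circles, 0.655% for integrin, 0.831% for collagen, 0.634% for the group with Hmcn1 and Frem1, 2.17% for ADAMTS and 3.12% for ADAM circles. The highest values came from circles with hardly any linear reads, such as the intronic Lama1 span at 100% with 0 linear reads and the Adam5 circle at 66.7% with 2. Among circles with more reads, Adamts6 exons 11 to 13 stood at 31.6% (6 junction and 26 linear reads, marked) and Col24a1 exon 3 at 14.9% (7 and 80).

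Adam12 was the member whose circular share was higher in the alveolar than in the pseudoglandular library, 6.19% against 2.40%, an odds ratio of junction to linear reads of 2.57 (Woolf interval 1.09 to 6.05). That is 1 of 7 hosts, beside 15.1% of 989. The single circle of exons 7 to 11 moved alike, with 4 junction and 543 linear reads in the pseudoglandular library and 7 and 250 in the alveolar, an odds ratio of 3.62 (1.11 to 11.7). Junction reads of this circle did not differ beyond counting error while linear reads were fewer. Frem1 had an odds ratio of 1.20 (0.615 to 2.34) and Hmcn1 of 0.653 (0.291 to 1.46) in the same pair, so neither circular share differed beyond counting error with all circles counted. Without marked circles Hmcn1 was lower by circular share, 0.335% in the alveolar library against 2.68% (0.121, 0.0420 to 0.346), beside 8.29% of 929 hosts called lower on that count. That value rests on 7 and 6 junction reads from different circles.

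In the other pairs 4 hosts were called by circular share. Sulf1 was higher in the canalicular than in the pseudoglandular library, 3.39% against 0.605% (odds ratio 5.76, 1.93 to 17.2), beside 8.69% of 1047 hosts, from different circles and with the marked circle of exons 3 to 20 as its canalicular source. Adamts6 was higher in the terminal sac than in the canalicular library, 18.6% against 3.91% (5.28, 1.91 to 14.6), beside 18.8% of 1160 hosts, again from different circles. Without the marked circle of exons 11 to 13, which gave 6 of its 13 terminal sac junction reads, Adamts6 was at 13.7% against 3.91% (3.80, 1.23 to 11.7) and still called, while Sulf1 could not be compared. From the terminal sac to the alveolar library 2 of 9 hosts were lower, beside 14.3% of 1084. Frem1 fell from 1.31% to 0.640% (0.466, 0.227 to 0.957), from different circles, since neither terminal sac circle was listed in the alveolar library, and Npnt from 0.674% to 0.146% (0.217, 0.0813 to 0.581). Without marked circles both stayed lower, and Adamts9 was lower too, at 0.436 (0.213 to 0.895), beside 14.3% of 1029 hosts called lower on that count. For Npnt exons 4 to 9 alone the odds ratio was 0.356 (0.114 to 1.11), whose interval includes 1. Of the 9572 alveolar linear reads of Npnt, 6846 lay at another circle that reaches the last exon.

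Structure was compared with all listed circles as a description. Both ends lay at exon boundaries of 1 transcript for 115 of 151 member circles (76.2%, against 74.2% of all), with a median of 5 exons in each set. The median spliced length was 759 bases, against 650. Introns before and after the circle had medians of 6335 and 5681 bases, against 6915 and 5181. Laminin and collagen circles were compact in the genome, with median spans of 2616 and 2972 bases against 10086 for all, and their upstream introns had medians of 1456 and 2160 bases. Adamts circles and those of the group with Hmcn1 and Frem1 spanned more, with medians of 14699 and 22297 bases.

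Of the 14 collagen circles at exon boundaries, 11 (78.6%) had a spliced length that is a multiple of 3, against 39.0% of all such circles and 43.5% of member ones, a difference given without a test. The other 10 collagen circles were not assessed for length. As background, many exons of collagen triple-helix domains begin and end at whole triplets. Direct repeats of 6 or more bases stood at the ends of 8 of 138 member circles placed in a transcript (5.80%) and of 292 of 11415 in all (2.56%), and 4 of the 8 were collagen circles, from Col16a1, Col18a1 and Col4a6. Of member circles with 10 or more reads in 1 library, 3 of 5 had few alignment patterns, against 10.3% of all such circles. With 6 to 9 reads it was 8 of 16, against 18.7%.

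Most member circles were seen at a single stage: 132 of 151 were listed in 1 library (87.4%, against 74.4% of all) and 2 in all 4 (1.32%, against 6.64%). Over the 4 libraries 7.28% had 10 or more reads, against 14.6% of all. Of the 151 circles 57 (37.7%) shared an exact start or end with another circle of their host, in 13 of the 32 hosts with 2 or more circles. The same share was not computed over all listed circles, so it is not given as a trait of matrix hosts. In Frem1, for example, 3 circles each share the starts 82950244 and 82959301 and the ends 83021102, 82972272 and 83005874.

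Partner genes outside the rule were taken as 4 lists in the comparison of the alveolar with the pseudoglandular library. Of 43 focal adhesion partners of integrins, 10 could be compared and 2 were higher: Ptk2, focal adhesion kinase, went from 15 to 34 reads (2.08-fold, 1.10 to 4.11), and Flna, an actin crosslinker that binds integrin tails, from 0 to 16 (at least 4.89-fold). These 2 of 10 stand beside 13% of 1088 hosts. None was lower, beside 16.5%, and the median log2 ratio of the 10 was 0.51 (0.57 with nothing added and Flna at its bound), beside -0.12 for all hosts. Of 35 basement membrane and adhesive glycoproteins, 4 could be compared, none was higher and the heparan sulfate proteoglycan gene Gpc6 was at least 7.27-fold lower, from 20 to 0 reads, 1 of 4 beside 16.5%. Without marked circles Gpc6 had too few reads to compare, while Ptk2 and Flna stayed higher. Its relative Gpc3 had 31, 30, 49 and 33 reads. Of 33 metalloproteinases and related genes 2 could be compared, and Mmp15, a membrane-anchored metalloproteinase, had 2, 6, 10 and 11 reads (5.04-fold higher, 1.10 to 46.8). None of 35 matrix modifying enzymes had enough reads.

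In the steps between, the integrin partners Tln1 and Parva appeared in the canalicular library alone, with 31 and 17 reads and 0 in the other 3. They were at least 8.60-fold and 4.72-fold higher than in the pseudoglandular library, 2 of 9 partners compared beside 8.84% of all hosts, and at least 12.0-fold and 6.56-fold lower in the terminal sac, beside 12.1%. Without marked circles Tln1 had too few reads to compare and Parva kept both calls. Vcan, which encodes the ADAMTS substrate versican, had 8, 20, 4 and 2 reads. It was 5.79-fold lower in the terminal sac than in the canalicular library (1.94 to 23.3), 1 of 2 glycoprotein genes compared beside 12.1% of all hosts. Without marked circles Vcan kept that call, while Adamts9, 2.11-fold lower at the same step, lost its own. Against the terminal sac library, Ptk2 (2.71-fold), Flna (3.40-fold) and the Arf regulator Asap2 (5.10-fold) were higher in the alveolar one, 3 of 11 partners compared beside 12.1% of 1199 hosts, and all 3 stayed higher without marked circles.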

How the data were processed

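The deposited tables list circRNAs per library in the column layout of CIRI; the tools named in the submitters' processing notes are BWA, HISAT2 2.0.5, HTSeq, StringTie and cutadapt, with build mm10, none with a role. Which filter was applied is not stated in the labels. Per the file headers, the authors deposited junction reads and non-junction reads as raw counts, the junction ratio as a fraction, and alignment-pattern numbers. Non-junction reads are the linear reads at the circle's ends, and the circular share was recomputed from both counts. A junction count without molecular identifiers is not a count of independent molecules, so intervals and limits cover counting error only.

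Symbols, exons and transcript sequences came from GENCODE M21 (4647 of 4653 host identifiers matched). Counts were summed by host and stage, tested on simulated counts and compared over the whole list, with the rules given above. Depth was 25983 to 36156 listed junction reads, and for an unlisted host the limit of 3 reads is 0.0115%, 0.00961%, 0.00830% and 0.0106% of a library in order of stage. Named members were the 30 hosts with most reads and every called host, with the leading circle of each; the others, further circles and Gpc3 were named after their values were seen. Some genes that this rule selects are not reported here. The members and lists were chosen with earlier results of these data known. Marker lists were alveolar type 2 and type 1 cells, lung epithelium, endothelium, fibroblasts and mesenchyme, smooth muscle and pericytes, immune cells, cartilage, cardiac and striated muscle, neurons and Schwann cells, and mesothelium. Python 3.11.15, numpy 2.4.6, pandas 2.3.3, scipy 1.17.1 and matplotlib 3.10.9 were used.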

Additional observations from a re-analysis of the deposited data

How the results depend on the processing

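No paired analysis was possible because there is 1 library per stage, and no library could be left out. The 13 calls on single member hosts under 9 alternatives make 117 cases. Of these, 91 kept direction and call, 10 kept direction alone and none reversed. In the other 16, of which 5 came without marked circles, the host had too few reads or was not in both libraries, so its call was lost with no value. A 1.5-fold threshold, no minimum, a minimum of 20 reads and listing in both libraries leave a host's ratio and interval unchanged. Their 13, 13, 9 and 10 kept calls could not have changed, so they do not speak for the calls. Without marked circles 4 calls were kept and 4 kept direction alone. Leaving out marked circles, from both numerator and denominator, gave 1 of 6 hosts called for the canalicular against the pseudoglandular library, beside 19.4% of all hosts (4 of 9 as reported). It gave 0 of 10 for the terminal sac against the canalicular, beside 22.4% (1 of 10 as reported). For the alveolar against the terminal sac it gave 2 of 7, beside 21.8% (5 of 9 as reported). It also gave 0 of 3 circles called for the alveolar against the pseudoglandular library, beside 25.9% of all circles compared (3 of 6 as reported), and an alveolar share of 0.642%. By circular share 2 of 6 hosts were called in that pair, Adam12 higher and Hmcn1 lower (1 of 7 as reported), beside 15.4% and 8.29% of 929 hosts. The values without marked circles for families, for circular share in the other 3 pairs and for the partner lists there were chosen after seeing the data. Leaving out repeat-end circles alone, an alternative chosen after seeing the data, gave 0 of 10 hosts for the terminal sac step, beside 23.8% of all hosts. For the alveolar against the pseudoglandular it gave 1 of 4 circles, beside 27.5% of all circles compared. Circles at exon boundaries alone gave 2 of 8 hosts for the canalicular step, beside 20% of all hosts. They gave 0 of 8 for the terminal sac step, beside 24.7%, and 2 of 7 by circular share, with no value for all hosts. A minimum of 20 reads gave 2 of 3 hosts for the canalicular step, beside 22.3%. It gave 2 of 5 list genes (4 of 16 as reported), beside 37.7%. Features listed in both libraries gave 2 of 7 hosts for the canalicular step, beside 16.7%, and 0 of 2 circles, beside 22.9% of all circles compared. Fewer features were compared under both of these settings, so their counts are not set directly against those reported. Without Hmcn1 the alveolar share was 0.533%.

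Scaling by the median of ratios or by non-junction reads moved the log2 ratio of the alveolar against the pseudoglandular library by 0.13 and 0.17. Adam12 then joined the higher hosts and Lama2, at 0.273 (0.0489 to 1.03) and 0.281 (0.0504 to 1.06), was no longer called. Non-junction scaling turned 100 higher and 129 lower hosts of the canalicular against the pseudoglandular library into 168 and 101, with a shift of 0.18, and the 4 member calls held. Depth limits most members: 21 of 37, 14 of 39, 20 of 49 and 27 of 54 member circles had 2 reads, and a host with under 10 reads in a pair was not compared.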

Other observations

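Marker hosts of other cell types in these libraries had the following junction reads in order of stage. Immune hosts had 10, 47, 60 and 15 reads. Most came from Mrc1 (2, 17, 10 and 7), Mertk (0, 14, 19 and 4) and Elmo1 (4, 16, 31 and 4). Ptprc and Csf1r had 2 pseudoglandular reads each and 0 later. Cartilage hosts had 0, 12, 9 and 0, from Sox6 in the canalicular and Sox5 in the terminal sac library. The other 4 of those 6 markers were not listed. Neuronal and mesothelial markers had 2 reads each, from Ncam1 and Msln, both in the canalicular library. Alveolar type 1 markers had 0, 0, 7 and 12, all from Rtkn2. General epithelial ones had 8, 5, 11 and 0, all from Foxp2.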
